A study of Drosophila melanogaster with 4 samples.

Results

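This account concerns 10 genes of the epidermal growth factor receptor (EGFR) pathway of Drosophila melanogaster, out of 11880 genes with read counts in 4 libraries. Of these, 9 are described by name: the receptor gene Egfr, the ligand genes spi, Krn and vn, the feedback inhibitor genes aos, sty and kek1, and the nuclear effector genes pnt and aop. All 10 were picked by matching the gene symbol, and all were found. Each group was represented by 1 library of polyadenylated RNA from larval heads. Every group, Control included, carried the Gal4 driver repo, which is active in glia, the temperature-sensitive repressor Gal80[ts] under a tubulin promoter, and UAS-myrRFP, a membrane-bound red fluorescent protein. Larvae were held at 29 °C for 5 days to release Gal4, after 3 days of egg laying at 25 °C. The Glioma with Ca-alpha1T RNAi group carried UAS-dEGFR[L], UAS-dp110[CAAX] and UAS-Ca-alpha1T-RNAi, which targets a T-type calcium channel gene. The Glioma with slo RNAi group carried the same EGFR and dp110 constructs and UAS-Slo-RNAi, which targets a calcium-activated potassium channel gene. The Glioma group carried the EGFR and dp110 constructs without RNAi, and Control carried none of these UAS constructs. The constructs act in glia, whereas the RNA came from all tissues of the head, so fewer cells of a type and less RNA per cell cannot be told apart. The labels do not give the strain, the sex or the number of larvae behind a library.

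In this pathway, Spi and Krn are made as membrane-bound precursors and are released by cleavage, whereas Vn is a secreted ligand related to the neuregulins. The bound receptor acts through Ras and the kinase cascade that ends in the MAP kinase encoded by rl. That kinase acts on the ETS transcription factors Pnt, an activator, and Aop (also called Yan), a repressor that competes with it. Signalling switches on its own inhibitors in many fly tissues: Aos, a secreted protein that captures Spi, Sty, an intracellular inhibitor of receptor tyrosine kinase signalling, and Kek1, a transmembrane protein that binds the receptor. Joint activation of EGFR and PI3K in larval glia is known to make these cells overgrow, and the comparisons ask how these larval heads differ from Control and how they differ again when either channel is targeted.

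Total counts lay between 31594447 and 38826243 per library. Each of the 14 glial, 12 neuronal, 8 neuroblast and 12 eye-antennal disc markers had at least 10 counts in every library, as did the muscle, salivary gland, fat body and tracheal markers, so the head samples held several tissues. The glial transcription factor gene repo stood at 40.9 CPM with Ca-alpha1T RNAi, 38.2 with slo RNAi, 36.6 in Glioma and 16.7 in Control. Of the targeted genes, Ca-alpha1T had 578 counts in the library labelled Ca-alpha1T RNAi and 673 in Glioma (log2 ratio −0.20, 95% counting interval −0.36 to −0.04), and slo had 753 counts in the library labelled slo RNAi and 1208 in Glioma (−0.45, −0.59 to −0.32). The direction for Ca-alpha1T differed between TMM-scaled counts and FPKM, since its FPKM was 1.13 in its RNAi library and 1.05 in Glioma. These measures differ in library scaling as well as in length. As a share of total counts Ca-alpha1T also stood slightly higher in its RNAi library (578 of 31594447 against 673 of 38826243). The scaling alone thus turned the direction. The FPKM of slo was 3.01 in its RNAi library and 4.32 in Glioma. In CPM Ca-alpha1T stood above Control in its own RNAi library, at 16.6 against 12.9 (log2 ratio 0.37, 0.19 to 0.54). For slo, its RNAi library and Control were not apart, at 24.98 against 22.97 CPM (0.12, −0.02 to 0.26). In FPKM slo was lower there (3.01 against 3.56 in Control). CPM here are counts scaled to library size with TMM factors, and FPKM are the authors' per-length values. All intervals cover counting error only. With 1 library per group no test between conditions was made and no spread between larvae is known. A gene was called higher or lower where the ratio was at least 2-fold, the interval left out equality and at least 10 counts stood in 1 or both libraries, a minimum that all 10 genes met. The lowest count of any of them was 467, for Krn with slo RNAi.

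The receptor transcript stood far above Control in all 3 glioma libraries, and nearly all the other genes stayed within 2-fold of Control. Egfr had 961.8 CPM with Ca-alpha1T RNAi, 651 CPM with slo RNAi, 897 CPM in Glioma and 182 CPM in Control (33447, 19634, 31685 and 7132 counts in that order). The 3 glioma libraries were well apart from Control, and the slo RNAi library was the lowest of the 3. These are ratios to Control of 5.30-fold with Ca-alpha1T RNAi, 3.59-fold with slo RNAi and 4.94-fold in Glioma. The authors' deposited table gives 5.35, 3.59 and 4.98 for the same 3 ratios, from the same libraries. The gene row holds construct reads and endogenous reads together. The level above that of Control made up 81.1% of the Egfr CPM with Ca-alpha1T RNAi, 72.1% with slo RNAi and 79.8% in Glioma, which is the construct's share only if the endogenous transcript stayed at its Control level. That was not tested. Relative to repo, the ratio of Egfr CPM to repo CPM was 23.5 with Ca-alpha1T RNAi, 17.03 with slo RNAi and 24.5 in Glioma, against 10.9 in Control. Egfr lies on chromosome 2R from 21522420 to 21559977 (dm6 coordinates, plus strand). In the annotation 5 other genes overlap that span and none overlaps its exons.

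**Figure D1:**
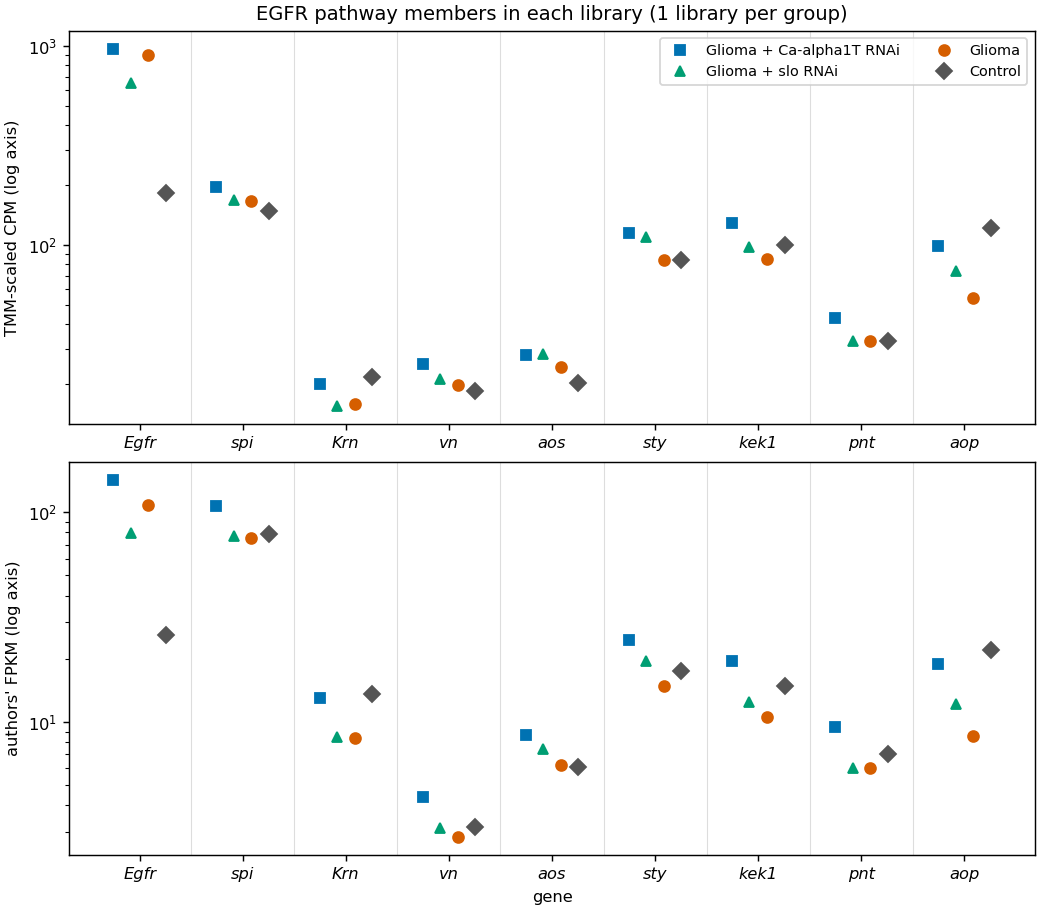
Level of each of 9 genes in the 4 libraries, 1 point per library, as TMM-scaled CPM (top) and as the authors' FPKM (bottom), both on log axes. Egfr lies at 961.8, 651 and 897 CPM in the 3 glioma libraries and at 182 CPM in Control, and in FPKM it passes spi only in the glioma libraries.

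Per length, the receptor transcript changed places with its main ligand transcript. Egfr had 142 FPKM with Ca-alpha1T RNAi, 79.6 with slo RNAi, 107.6 in Glioma and 26.0 in Control. The ligand gene spi had 106.9, 76.6, 75.2 and 78.5 FPKM in the same order. Egfr was thus first of the 10 genes in each glioma library and second in Control, where spi was first at 3.02 times the Egfr FPKM. The ratio of Egfr FPKM to the summed FPKM of the 3 ligand genes was 1.14 with Ca-alpha1T RNAi, 0.903 with slo RNAi and 1.24 in Glioma, against 0.273 in Control. Among all genes ordered by FPKM, Egfr was at place 511, 769 and 659 in these glioma libraries and at place 2507 in Control.

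The 3 ligand genes did not follow the receptor in the size of its change. Like Egfr, spi and vn stood highest with Ca-alpha1T RNAi and lowest in Control, but Krn stood highest in Control. In CPM, spi stood at 194.6 with Ca-alpha1T RNAi, 167 with slo RNAi, 167 in Glioma and 147 in Control. The Glioma to Control log2 ratio of spi was 0.18 (0.12 to 0.23), which turned below 0 on total counts, FPKM and TPM, with a lowest value of −0.13. The slo RNAi and Glioma libraries were not apart for spi beyond counting error. The neuregulin-like ligand gene vn stood at 25.2 CPM with Ca-alpha1T RNAi, 21.2 with slo RNAi, 19.6 in Glioma and 18.5 in Control. Neither slo RNAi and Glioma nor Glioma and Control, neighbours in that order, were apart for vn. By FPKM vn was last of the 10 genes in every library, between 2.83 and 4.39 FPKM. Krn, the second precursor ligand gene, stood at 20.01 CPM with Ca-alpha1T RNAi, 15.5 with slo RNAi, 15.8 in Glioma and 21.6 in Control. It was lower than in Control in Glioma (log2 ratio −0.45, −0.61 to −0.29) and with slo RNAi (−0.48, −0.65 to −0.32), while Ca-alpha1T RNAi and Control were not apart. An exon of Krn overlaps the gene Ndfip on the same strand, which had 1424 counts in Control, so reads there may be shared. The coordinates in dm6 are chromosome 2L from 19567900 to 19577315 for spi, 3L from 5813338 to 5845664 for vn and 3L from 17649562 to 17654280 for Krn.

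With TMM scaling none of the 3 feedback inhibitor genes was called in any comparison. Of all detected genes, between 4.15% and 10.1% were called per direction, so a count of 0 among 3 does not set these genes apart. On the authors' TPM kek1 passed 2-fold with Ca-alpha1T RNAi against Glioma, at a log2 ratio of 1.03. The gene aos, for the secreted antagonist, had 27.8 CPM with Ca-alpha1T RNAi, 28.4 with slo RNAi, 24.4 in Glioma and 20.2 in Control. All 3 glioma libraries lay above Control, and the RNAi libraries were not apart from each other. The Glioma to Control log2 ratio of aos was 0.27 (0.13 to 0.41), and it turned to −0.04 on the authors' TPM. The gene sty had 114.6 CPM with Ca-alpha1T RNAi, 109 with slo RNAi, 83.9 in Glioma and 83.6 in Control. The RNAi libraries thus stood above both others, and Glioma and Control were not apart for sty (0.0038, −0.07 to 0.08). Against Control the log2 ratio of sty was 0.45 (0.39 to 0.52) with Ca-alpha1T RNAi and 0.38 (0.31 to 0.45) with slo RNAi. The gene kek1 had 127.9 CPM with Ca-alpha1T RNAi, 97.2 with slo RNAi, 84.9 in Glioma and 100.1 in Control. Glioma was the lowest library for kek1, at a log2 ratio of −0.24 (−0.31 to −0.17) to Control, and slo RNAi and Control were not apart. Over aos, sty, kek1, pnt and vn, all known to be switched on by EGFR signalling in some fly tissues, the highest upper bound of a Glioma to Control ratio was 1.33-fold, that of aos. Outside this set, the inhibitor gene Mkp3 stood higher, at a log2 ratio of 0.48 in the same pair of libraries. The Egfr ratio in that pair was 4.94-fold, from a row that also holds construct reads. On chromosome 3L, aos lies from 16470386 to 16483650 and sty from 3401153 to 3424935, and kek1 lies on 2L from 12817000 to 12822787 (dm6).

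The effector genes differed from each other. The activator gene pnt had 43.0 CPM with Ca-alpha1T RNAi, 32.7 with slo RNAi, 32.8 in Glioma and 32.7 in Control. The last 3 were not apart, and only the Ca-alpha1T RNAi library stood higher, at a log2 ratio of 0.39 (0.28 to 0.50) to Glioma. The repressor gene aop had 99.1 CPM with Ca-alpha1T RNAi, 73.8 with slo RNAi, 54.1 in Glioma and 121 in Control (3445, 2226, 1911 and 4741 counts). Each library was apart from its neighbours in the order Control, Ca-alpha1T RNAi, slo RNAi, Glioma. In Glioma aop stood at a log2 ratio of −1.16 (−1.23 to −1.08) to Control, and 4.86% of detected genes lay lower. It was the only called gene of the 10 besides Egfr, and the authors' deposited table gives a signed fold of −2.21. Against Control it stood at −0.29 (−0.35 to −0.22) with Ca-alpha1T RNAi and −0.71 (−0.78 to −0.64) with slo RNAi. The FPKM of aop was 2.01 times that of pnt with Ca-alpha1T RNAi, 2.01 times with slo RNAi, 1.43 times in Glioma and 3.15 times in Control. The coordinates in dm6 are 3R from 23290231 to 23346167 for pnt and 2L from 2156484 to 2178754 for aop. An exon of aop overlaps CG15382 on the opposite strand, a gene with 89 counts in Control, and the sources used here do not say whether counting used the strand.

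**Figure D2:**
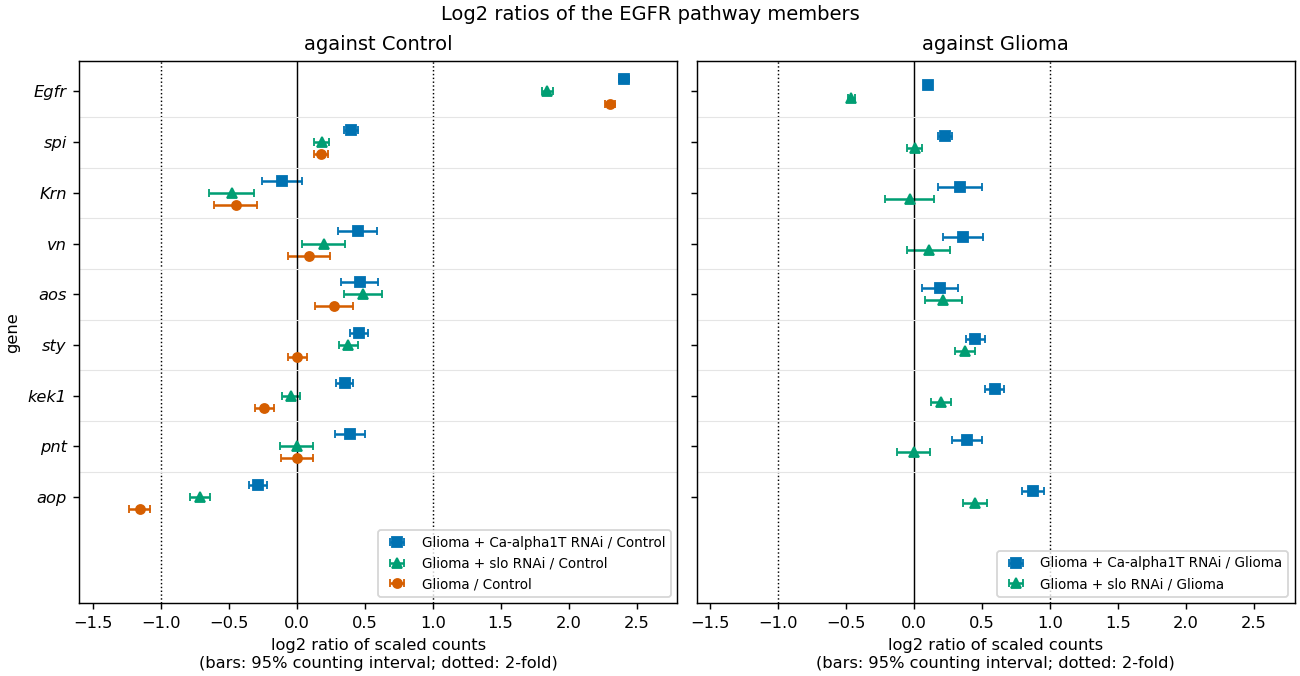
Log2 ratio of scaled counts for 9 genes against Control (left) and against Glioma (right), with 95% counting intervals as bars and dotted lines at 2-fold. Egfr lies beyond 2-fold in each comparison with Control and aop in Glioma at −1.16, whereas relative to Glioma all 9 genes lie inside the dotted lines.

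Some marker lists of other cells ran in the same order of libraries as aop, and others did not. The summed CPM of the 8 neuroblast markers was 677 with Ca-alpha1T RNAi, 563 with slo RNAi, 343 in Glioma and 765 in Control. In Glioma against Control 0 of 8 were called higher and 2 of 8 lower. Of all detected genes, 10.1% were higher and 5.81% lower in that comparison, which holds for each list below. The summed CPM of the 12 eye-antennal disc markers was 349 with Ca-alpha1T RNAi, 322 with slo RNAi, 258 in Glioma and 362 in Control, with none called in Glioma. Both sums shared the order of aop, but single markers varied. In Glioma against Control the neuroblast markers had a median log2 ratio of −0.75, from −1.52 for pros to −0.32 for dpn. With slo RNAi against Control 3 of the 8 lay above 0 and 5 below. As a share of Control, aop stood at 82.1% with Ca-alpha1T RNAi, 61.2% with slo RNAi and 44.8% in Glioma, and the neuroblast sum at 88.6%, 73.6% and 44.8%. The part of these cells in the aop values was not tested. The neuronal sum ran from 592.8 CPM in Glioma to 711 CPM with slo RNAi. The 14 glial markers summed to 1191 CPM with Ca-alpha1T RNAi, 1216 with slo RNAi, 1359 in Glioma and 1116 in Control, with 3 higher and 1 lower in Glioma. The sum of the 11 muscle markers stood at 134% of Control with Ca-alpha1T RNAi, 212% with slo RNAi and 350% in Glioma, in the reverse order to aop. The salivary gland sum stood at 6.58% of Control with Ca-alpha1T RNAi, 60.2% with slo RNAi and 11.2% in Glioma, and the fat body sum at 85.8%, 132% and 53.9%, neither in the order of aop. In Glioma against Control 6 of 9 salivary gland markers were called lower and 1 higher. In the same comparison 3 of 7 fat body markers were called lower and 0 higher, and 11 of 11 muscle markers were called higher. The tracheal sum stood at 101%, 121% and 158% of Control. Like the muscle sum, the tracheal and glial sums ran in the reverse order to aop.

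**Figure D3:**
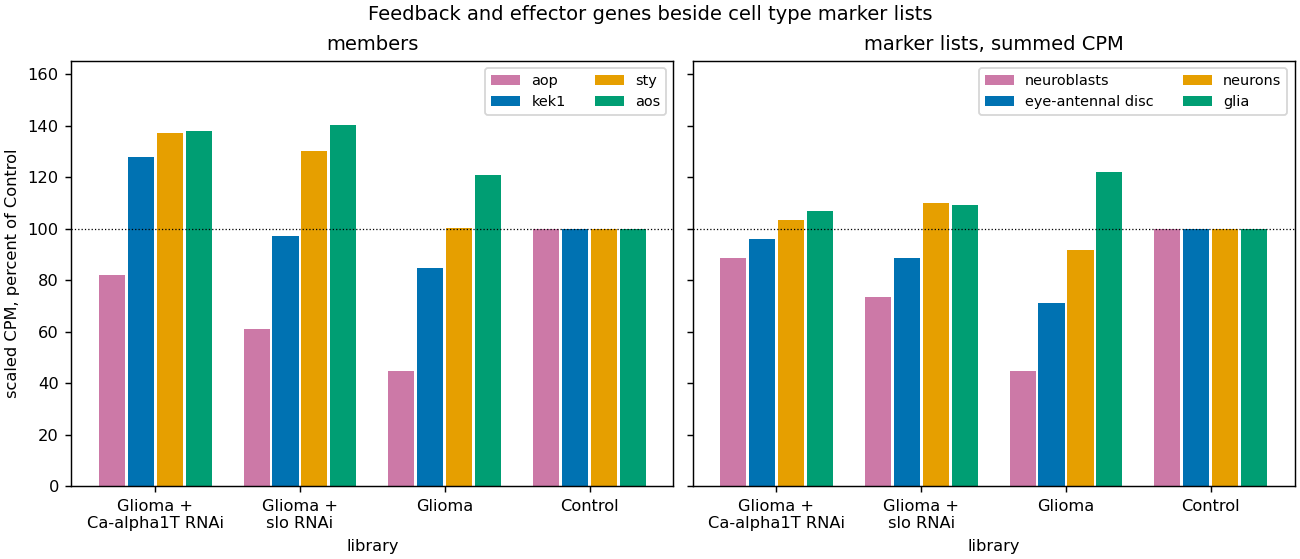
Scaled CPM as a percent of Control (bars from 0) for aop, kek1, sty and aos (left) and for the summed markers of neuroblasts, eye-antennal disc, neurons and glia (right) in the 4 libraries. In Glioma aop and the neuroblast sum both lie at 44.8% of Control, while aos lies at 121%. The single neuroblast markers, not drawn, range in log2 ratio of Glioma to Control from −1.52 to −0.32.

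The counts of called genes were set beside those over all genes. In Glioma against Control 1 of 10 was called higher, Egfr, where 10.1% of 11410 detected genes were, and 1 lower, aop, where 5.81% were. Against Control 1 of 10 was higher and none lower both with Ca-alpha1T RNAi (6.05% and 4.15% of all detected genes) and with slo RNAi (7.31% and 5.95%), Egfr each time. With 10 genes, 1 call is a share close to or above these, so the counts do not set the 10 apart from all genes. The 3 comparisons share the Control library. The 9 genes other than Egfr had median log2 ratios to Control of 0.39 with Ca-alpha1T RNAi, 0.18 with slo RNAi and 0.0023 in Glioma, where all detected genes had medians of −0.02, −0.0059 and 0.0019. With Ca-alpha1T RNAi the counting interval of 7 of the 9 lay above 0 against Control, as did that of 30.7% of all detected genes. The split of calls over all genes depends on the scaling: in Glioma against Control 63.5% of calls were higher with TMM and 46.3% on total counts, and with slo RNAi against Control 55.2% and 41.5%.

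Against Glioma, the Ca-alpha1T RNAi library held more transcript of every one of the 10 genes, by less than 2-fold. None of the 10 was called, where 4.93% of 11405 detected genes were higher and 6.88% lower. The 3445 counts of aop with Ca-alpha1T RNAi, against 1911 in Glioma, gave a ratio of 0.87 on the log2 scale (0.79 to 0.95), and 6.67% of detected genes lay higher. Next were kek1 at 0.59 (0.52 to 0.66), sty at 0.45, pnt at 0.39 and vn at 0.36. The lowest was Egfr at 0.10 (0.08 to 0.12), and aos stood at 0.19 (0.06 to 0.32). The counting intervals of all 9 genes other than Egfr lay above 0, as did those of 35.1% of all detected genes, and their median was 0.36, where that of all detected genes was −0.01. Scaling by total counts put the median over all genes at 0.26 and that of the 9 at 0.63, and aop then passed the 2-fold rule at 1.15. With that scaling 67.4% of all calls were higher, against 41.7% with TMM. In the same comparison 2 of 8 neuroblast markers were called higher, with a list median of 0.61, and 9 of 11 muscle markers were called lower. Of the 9 salivary gland markers 3 were higher and 3 lower, and 2 of 7 fat body markers were higher. Their part in the values of the 10 genes was not tested.

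With slo RNAi against Glioma, again none of the 10 was called, where 4.43% of 11389 detected genes were higher and 6.8% lower. Egfr stood lower at a log2 ratio of −0.46 (−0.49 to −0.44), and 17.2% of detected genes lay lower still. Pi3K92E, the gene for the catalytic subunit dp110 of PI3K that the other construct encodes, had 880 CPM with Ca-alpha1T RNAi, 373 with slo RNAi, 903 in Glioma and 98.6 in Control. Its log2 ratio of slo RNAi to Glioma was −1.27 (−1.30 to −1.24), so both construct genes were lower in the slo RNAi library. The gene repo stood at 0.06 (−0.05 to 0.18) in the same pair. Of the marker lists, salivary gland had 8 of 9 called higher with a median log2 ratio of 3.00, and fat body 6 of 7 with a median of 1.56. Of the 8 neuroblast markers 1 was called higher, and of the 11 muscle markers 2 were called lower. The part of these differences in the values of the 10 genes was not tested. Counting intervals lay above 0 for 5 of the 9 other genes and for 31.5% of all detected genes. Among them were aop at 0.45, sty at 0.38, aos at 0.22 and kek1 at 0.20. For spi, vn, Krn and pnt the interval held 0. The median of the 9 was 0.20, where that of all detected genes was −0.01. Both comparisons with Glioma share that library.

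The other 46 genes of the pathway list, among them adaptors, kinases, further inhibitors and other receptor tyrosine kinases, held 1 or 2 called genes in each comparison. In Glioma against Control 1 of 46 was higher and none lower, where 10.1% and 5.81% of all detected genes were, with a median log2 ratio of −0.25. The gene called was Ets21C, an ETS factor gene known as a target of JNK signalling. It had 12.7 CPM with Ca-alpha1T RNAi, 33.5 with slo RNAi, 10.5 in Glioma and 3.11 in Control, and its log2 ratio to Control was 2.03, 3.43 and 1.76 in the 3 glioma libraries. All 3 glioma libraries stood above Control, and slo RNAi stood above Glioma at 1.67 (1.497 to 1.85). With slo RNAi against Control stet, a gene for a protease that releases ligands in the germline, was lower at −1.11 (−1.68 to −0.58) on 40 against 113 counts. With Ca-alpha1T RNAi against Glioma rl, the MAP kinase gene, had 5182 against 2277 counts, a log2 ratio of 1.21 (1.14 to 1.28). In the same comparison boss, the ligand gene of the receptor Sev, stood at 1.04 (0.14 to 2.06) on 31 against 15 counts. With slo RNAi against Glioma it stood at 1.25 (0.34 to 2.27), again on 31 against 15 counts, low counts in both pairs. Against Control 1 of the 46 was higher and none lower with Ca-alpha1T RNAi, where 6.05% and 4.15% of all detected genes were. With slo RNAi against Control 1 was higher and 1 lower, where 7.31% and 5.95% were. In each comparison with Glioma 2 of the 46 were higher and none lower. Of all detected genes, 4.93% were higher and 6.88% lower with Ca-alpha1T RNAi against Glioma, and 4.43% and 6.8% with slo RNAi.

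By role, the 6 adaptor and exchange genes (drk, Sos, Shc, csw, dos and Src42A), which link receptors to Ras, all lay below 0 in Glioma against Control, from −0.64 for Src42A to −0.08 for Shc. All 6 lay above 0 with Ca-alpha1T RNAi against Glioma, from 0.03 for Shc to 0.56 for drk. With slo RNAi against Glioma all 6 lay above 0 too, from 0.0086 for Shc to 0.52 for drk. Shc was thus close to equality in both, on 1495 counts with Ca-alpha1T RNAi, 1273 with slo RNAi and 1482 in Glioma. None of them was called. The Glioma library enters all 3 of these comparisons, so the 3 directions are not independent. Against Control the median of the 6 was 0.02 with Ca-alpha1T RNAi, with 4 of 6 above 0. With slo RNAi it was −0.09, with 0 of 6 above 0. Over all detected genes the medians of these comparisons lay between −0.02 and 0.0019. Of the 10 kinase cascade genes, 9 lay below 0 in Glioma against Control, with a median of −0.17 and 14-3-3zeta highest at 0.15. The inhibitor gene with the highest Glioma to Control ratio was Mkp3, for a phosphatase that acts on MAP kinase, with 67.8 CPM with Ca-alpha1T RNAi, 59.6 with slo RNAi, 53.5 in Glioma and 38.4 in Control. Its log2 ratio to Control was 0.82, 0.63 and 0.48 in these glioma libraries, under the 2-fold rule.

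**Figure D4:**
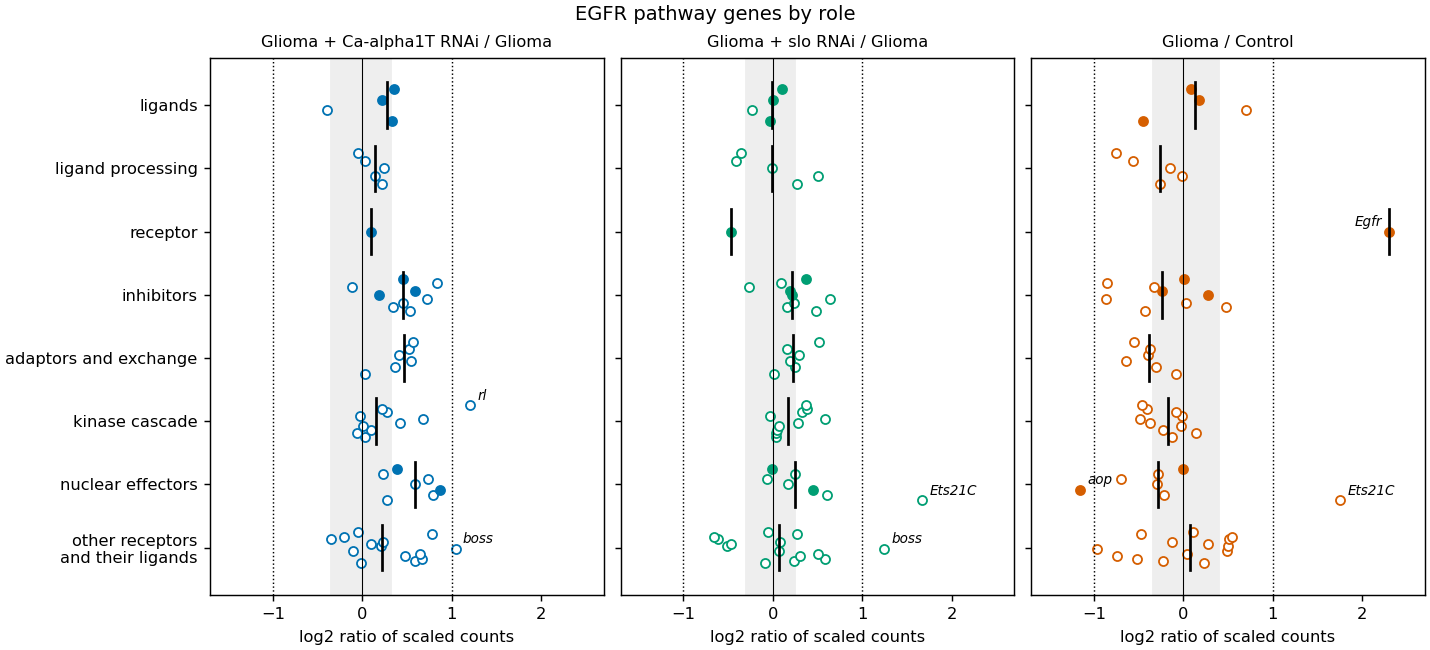
Log2 ratios of the 56 pathway genes by role in 3 comparisons, 1 point per gene, filled for the 9 genes described by name. Black bars mark the median of a role, grey bands the interquartile range of all detected genes and dotted lines 2-fold, and called genes are named. In Glioma against Control Egfr at 2.30, Ets21C at 1.76 and aop at −1.16 lie outside the dotted lines.

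Over the 4 libraries Egfr spanned a log2 range of 2.40, larger than that of 94.1% of all genes, and aop one of 1.16, larger than that of 74.6%. The other 8 spanned between 0.39 for pnt and 0.59 for kek1. Likeness of pattern was measured as the Euclidean distance between centred log2 CPM values over the 4 libraries, among 8962 other genes with at least 100 counts in each. The nearest to Egfr were CG3604 at a distance of 0.15, CG10232 at 0.22 and CG6225 at 0.38. CG3604 had 1072 counts with Ca-alpha1T RNAi, 620 with slo RNAi, 1057 in Glioma and 257 in Control. The nearest to aop were Hr39, a nuclear receptor gene, at 0.02, the gene CG32944 at 0.05 and LManII, a lysosomal mannosidase gene, at 0.08. Hr39 had 67.98 CPM with Ca-alpha1T RNAi, 49.9 with slo RNAi, 36.5 in Glioma and 81.7 in Control. With 4 libraries, many genes can share a pattern.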

How the data were processed

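Larval head poly-A RNA of 4 groups, 1 library each, was compared. Read counts per gene, whole numbers of at least 1, were deposited by the authors, per the file headers, together with their FPKM and TPM, log2 normalized values (not used) and signed fold scores for pairs of libraries. Per the submitters' processing notes, HISAT2 2.1.0, StringTie 2.1.3b, Trimmomatic 0.38, FastQC 0.11.7 and edgeR were used, with the build dm6; the annotation and the use of strand are not given in the sources used here. A gene absent from a library is not listed, since every listed gene has at least 1 count in all 4.

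Libraries were scaled with TMM factors (edgeR 4.0.16, R 4.3.3) of 1.10 for Ca-alpha1T RNAi, 0.939 for slo RNAi, 0.909 for Glioma and 1.06 for Control. Log2 ratios used a prior count (0.5, in proportion to library size) with exact conditional binomial 95% intervals (Python 3.11.15, scipy 1.17.1), which cover counting error only. The calculation was also run on simulated counts that held counting error only, so that run cannot speak to the spread between larvae. Values of 10 members, a pathway list of 56 genes and 8 marker lists were computed. The members and each called pathway gene are given by name, except 1 member that enters the counts and medians and is otherwise not reported here, with the 3 genes nearest in pattern to Egfr and to the other member of widest range. The members and lists were chosen with earlier results of these data known. Alternatives were DESeq2 1.42.0 size factors, total counts with and without the 21 mitochondrial genome genes, minimum counts of 0 and 50, folds of 1.5 and 4, a larger prior count (5), and log2 of the deposited FPKM or TPM after adding 1. Gene positions come from an Ensembl annotation in dm6 coordinates.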

Additional observations from a re-analysis of the deposited data

How the results depend on the processing

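With 1 library per group, no replicate could be left out, and no paired analysis was possible because no group has a second library. The 50 log2 ratios of the 10 genes had no called value that changed sign under 6 alternatives of scaling, prior count and unit. The sign was kept in all 6 for 40 of them, and the 10 that changed sign at least once were values of spi, vn, Krn, aos, sty and pnt, none of them called. Egfr in Glioma against Control ranged from 1.96 to 2.31, and aop from −1.38 to −1.16. DESeq2 size factors, a prior count of 5 and minimum counts of 0 and 50 moved no count of called members by more than 1.5 times.

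At 1.5-fold, 1 member was lower with slo RNAi against Control, as were 1330 of 11403 detected genes. With Ca-alpha1T RNAi against Glioma 2 members were higher at 1.5-fold, as were 1308 of 11405 detected genes. The 2-fold rule called 0 members in both cases. At 4-fold, 0 members were lower in Glioma and 0 higher with slo RNAi against Control, where 192 and 194 of all genes were. With Ca-alpha1T RNAi against Glioma, 1 member, aop, was higher on total counts, with or without mitochondrial genes, and on FPKM. On TPM 2 members were higher, aop at 1.27 and kek1 at 1.03. Over all genes 975 were higher on total counts, 1053 without mitochondrial genes, 427 on FPKM and 934 on TPM. The median of the 9 other members in Glioma against Control was −0.22 on total counts, −0.21 without mitochondrial genes, −0.20 on FPKM and −0.27 on TPM. With slo RNAi against Control it was 0.0030 on total counts, −0.035 on FPKM and −0.031 on TPM. With Ca-alpha1T RNAi it was 0.51 against Control on TPM, and against Glioma 0.63 on total counts, 0.66 without mitochondrial genes, 0.58 on FPKM and 0.78 on TPM. With slo RNAi against Glioma it was 0.35 without mitochondrial genes. These shifts go with those of all genes, whose median in Glioma against Control was −0.22 on total counts and −0.26 on TPM. Over all genes, calls in Glioma against Control ranged from 496 to 1157 higher and from 514 to 1024 lower under these alternatives with 2-fold kept. The lowest count of a member was 467, and several intervals of the less abundant ones, such as vn and Krn, include 0. The spread between larvae is unknown.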

Other observations

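The 14 genes of other receptor tyrosine kinases and their ligands, which also act through Ras, had no member called against Control in any glioma library. Of all detected genes, 6.05% were higher and 4.15% lower in the Ca-alpha1T RNAi library, 7.31% and 5.95% in the slo RNAi library, and 10.1% and 5.81% in Glioma, so a count of 0 among 14 does not set this list apart. The median log2 ratio was 0.27 with Ca-alpha1T RNAi, −0.0022 with slo RNAi and 0.08 in Glioma, and 13, 7 and 8 of the 14 lay above 0. Pvr, the receptor gene for PDGF- and VEGF-related factors, had 93.4 CPM with Ca-alpha1T RNAi, 84.1 with slo RNAi, 59.4 in Glioma and 57.6 in Control. The RNAi libraries thus stood above both others for Pvr, as they did for sty. The fibroblast growth factor receptor gene btl had 20.96 CPM with Ca-alpha1T RNAi, 12.7 with slo RNAi, 18.1 in Glioma and 12.8 in Control, with slo RNAi close to Control. The ligand gene grk, best known from the female germline, had 19.3 CPM with Ca-alpha1T RNAi, 21.6 with slo RNAi, 25.3 in Glioma and 15.6 in Control. Pvr, btl and grk were chosen after their values were seen.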
